A study of Mus musculus with 14 samples.

Results

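The genes described here are 9 that encode channels, carriers, an enzyme and blood group proteins of the red cell: Aqp1, Slc4a1, Rhag, Car2, Kel, Art4, Rhd, Ermap and Icam4. They were chosen by their processed signal, or that of related genes, in the Kit-Gr1- fraction set against the Kit+Gr1- fractions, so their levels in the Kit-Gr1- fraction are a description and carry no test. Each had 1 probe on the array, and all 9 passed the filter on dim probes, out of 32476 genes that did. FDCPmix is an immortal mouse line of multipotent blood progenitors, with bone marrow as its labelled tissue, that depends on interleukin-3. All cells came from maintenance cultures in Fisher's medium with horse serum and conditioned medium of WEHI cells as the source of interleukin-3. RNA was measured on 14 single-colour arrays: the Kit-Gr1-, Gr1+, Kit+Gr1-Sca1hi and Kit+Gr1-Sca1lo fractions had 3 each and were separated by flow cytometry, and unfractionated cells had 2. Replicates are biological per the series' text, and no group had a drug, an added lineage factor or a genetic change by the labels. All 5 groups are of this 1 line, which limits them as a model of marrow. The last 2 sorted fractions are called Sca1hi and Sca1lo below, and Kit+Gr1- where both are meant.

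The red cell membrane holds water, gas and anion channels in large complexes, and many of its proteins carry the antigens by which blood is typed. Aqp1 is the water channel that carries the Colton antigens in humans. Slc4a1 is band 3, the chloride and bicarbonate exchanger, and Car2 is the cytosolic carbonic anhydrase that makes bicarbonate from carbon dioxide. Rhag and Rhd form the Rh complex, in which Rhag is an ammonium channel. Kel is the Kell endopeptidase, Art4 the Dombrock protein of the ADP-ribosyltransferase family, Ermap the Scianna protein of the butyrophilin type, and Icam4 the Landsteiner-Wiener adhesion molecule. In human erythroid cultures the Kell protein is known to appear on the surface before band 3 and RhD. GATA1, the main transcription factor of the erythroid lineage, binds short GATA sites in many red cell promoters.

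The promoters are shown because the genes differed in pattern while most shared one sequence feature. RefSeq promoters on GRCm38.p6, from 250 bases before to 50 bases after the annotated start, were at hand for 7 of the 9 genes, all but Slc4a1 and Car2. A GATA site was any stretch on either strand that read AGATA or TGATA and then A or G, and a CACCC box was CCNCACCC on either strand. No match of the GATA sites overlapped a CACCC box in these 7 promoters. Capitals mark the matches, and a match on the other strand reads as its complement. Of the sequences, Aqp1, Kel, Art4 and Icam4 belong to genes whose levels were highest in Kit-Gr1- cells, and Rhd to a gene close to background. They lie at chr6:55336049-55336348 (plus strand), chr6:41704276-41704575 (minus strand), chr6:136857551-136857850 (minus strand), chr9:21029182-21029481 (plus strand) and chr4:134864286-134864585 (plus strand), and the last 50 bases of each lie within the annotated transcript.
Aqp1: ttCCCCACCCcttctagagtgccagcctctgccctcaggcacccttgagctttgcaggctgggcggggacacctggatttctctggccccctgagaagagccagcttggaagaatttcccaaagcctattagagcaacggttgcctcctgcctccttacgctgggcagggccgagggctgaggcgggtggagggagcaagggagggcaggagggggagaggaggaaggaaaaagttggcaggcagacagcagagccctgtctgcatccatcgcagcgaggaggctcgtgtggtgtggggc
Kel: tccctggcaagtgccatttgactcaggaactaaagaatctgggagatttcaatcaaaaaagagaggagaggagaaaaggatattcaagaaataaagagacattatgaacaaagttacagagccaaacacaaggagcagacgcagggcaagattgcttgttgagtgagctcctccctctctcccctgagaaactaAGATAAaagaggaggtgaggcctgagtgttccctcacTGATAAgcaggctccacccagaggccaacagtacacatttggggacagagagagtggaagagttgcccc
Art4: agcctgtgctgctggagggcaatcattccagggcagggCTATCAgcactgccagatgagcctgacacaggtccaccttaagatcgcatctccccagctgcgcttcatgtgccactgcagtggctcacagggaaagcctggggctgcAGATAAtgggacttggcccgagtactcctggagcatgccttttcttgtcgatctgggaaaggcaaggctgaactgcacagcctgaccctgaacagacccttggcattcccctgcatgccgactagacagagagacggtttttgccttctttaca
Icam4: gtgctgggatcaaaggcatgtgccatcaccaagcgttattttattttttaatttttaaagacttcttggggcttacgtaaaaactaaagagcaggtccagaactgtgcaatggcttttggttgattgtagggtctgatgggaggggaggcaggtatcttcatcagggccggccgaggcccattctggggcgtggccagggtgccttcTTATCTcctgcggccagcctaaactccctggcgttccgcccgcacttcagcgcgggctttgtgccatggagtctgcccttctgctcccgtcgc
Rhd: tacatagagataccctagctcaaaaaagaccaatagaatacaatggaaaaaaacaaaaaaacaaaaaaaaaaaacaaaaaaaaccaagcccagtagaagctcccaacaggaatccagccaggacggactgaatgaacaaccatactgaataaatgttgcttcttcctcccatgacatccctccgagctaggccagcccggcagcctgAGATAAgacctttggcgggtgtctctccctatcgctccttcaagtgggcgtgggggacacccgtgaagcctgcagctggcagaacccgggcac

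A GATA site was found in 6 of the 7 promoters, all but that of Aqp1, and in 29.8% of all 32851 promoters in the table (9778 of them). The Kel promoter held AGATAA from -56 to -51 and TGATAA from -19 to -14 relative to the start. Art4 held AGATAA from -104 to -99 and, on the other strand, TGATAG from -212 to -207. The site lay from -43 to -38 in both Icam4 and Rhd, on opposite strands. Rhag held TGATAA on the other strand from -31 to -26, and Ermap the same letters from -67 to -62. The Aqp1 promoter held the 1 CACCC box of the 7, from -248 to -241, and 16.6% of all promoters held one. These are matches of letters, not measured binding. As given next, Kit-Gr1- arrays stood above all other sorted arrays for Kel, Art4 and Icam4, and overlapped them for Rhag, Rhd and Ermap. Without the compressed arrays they stood above the others for all 6 genes with a site, narrowly for Rhd, and for Aqp1, which had none.

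**Figure D1:**
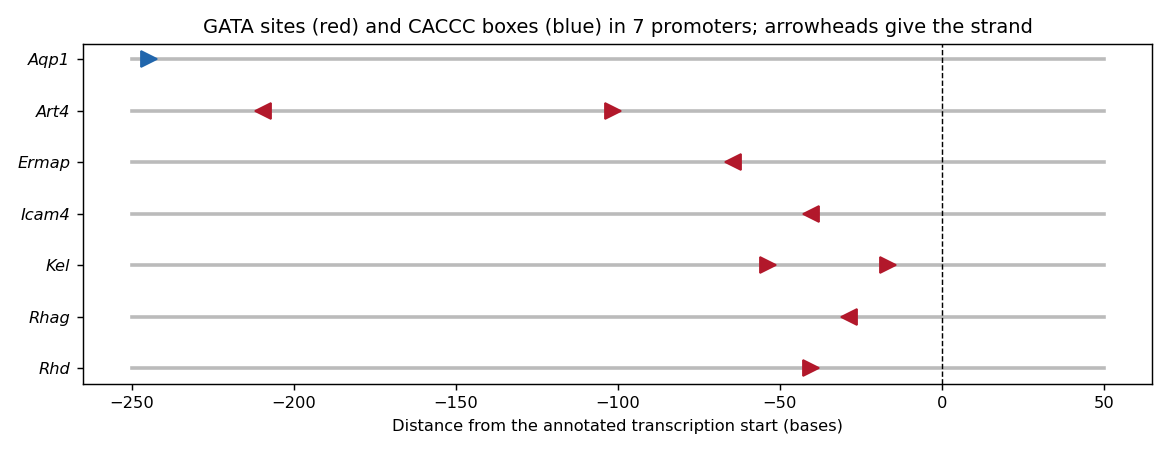
GATA sites (red) and CACCC boxes (blue) in the 7 promoters at hand, by distance in bases from the annotated start (dashed line), with arrowheads for the strand of the motif. In 5 promoters (Ermap, Icam4, Kel, Rhag and Rhd) every GATA site lay between positions -67 and -14, while those of Art4 lay further upstream, from -212 to -207 and from -104 to -99. The share of all promoters with a site in that stretch was not counted.

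Levels are log2 processed signals minus the array's 75th percentile, so 0 is a probe as bright as that percentile, and a probe's level is compared only with itself on other arrays. On 10 arrays the median processed signal was 122 to 253 scanner units, and 79.5% to 89.4% of spots were well above background. On the other 4 the signals were compressed, with an interquartile range of 1.78 to 3.42 on the log2 scale against 4.17 to 4.92. Their median was 294 to 5180 scanner units, and 90.7% to 99.5% of their spots were well above background, so that flag says less there. These 4 arrays are replicate 3 of Gr1+, of Sca1hi and of Sca1lo, and unfractionated replicate 1, and results are given with and without them where they matter. Precision is limited throughout by how few arrays there were.

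The water channel gene Aqp1 had the widest range of the 9. Its level was 3.19, 1.92 and 2.58 in Kit-Gr1- cells, -3.10, -5.12 and -4.10 in Gr1+ cells, -3.07, -3.42 and -3.58 in Sca1hi cells, and -0.20, -1.38 and -1.34 in Sca1lo cells. Every Kit-Gr1- array was above every Sca1lo array, and every Sca1lo array above every Sca1hi array, while Sca1hi and Gr1+ arrays overlapped. In unfractionated cells Aqp1 read -1.12 and 0.44. Kit-Gr1- cells were 6.68 ± 0.55 above Gr1+ cells on the log2 scale (102-fold), where ± is the standard error from limma here and below. Within slides 1, 2 and 3 that difference was 6.29, 7.04 and 6.69.

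The Kell gene Kel followed the same order. It read 2.01, 1.25 and 1.81 in Kit-Gr1- cells, -3.62, -3.96 and -3.55 in Gr1+ cells, -2.55, -2.28 and -3.02 in Sca1hi cells, and -0.57, -1.06 and -1.25 in Sca1lo cells. No 2 of these 4 fractions overlapped for Kel, so that Kit-Gr1- lay above Sca1lo, Sca1lo above Sca1hi, and Sca1hi above Gr1+. The unfractionated arrays read -1.27 and 0.12. Kit-Gr1- cells were 5.40 ± 0.37 above Gr1+ cells (42.1-fold), with 5.62, 5.21 and 5.35 within slides 1, 2 and 3.

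The Dombrock gene Art4 had levels of 1.46, -0.07 and 0.68 in Kit-Gr1- cells. It read -3.85, -4.21 and -2.86 in Gr1+ cells, -3.19, -3.30 and -2.45 in Sca1hi cells, and -1.25, -2.34 and -2.13 in Sca1lo cells. The Kit-Gr1- arrays stood above all others, the Sca1lo arrays above the Sca1hi arrays by a narrow margin, and Sca1hi and Gr1+ overlapped. Kit-Gr1- cells were 4.33 ± 0.47 above Gr1+ cells (20.1-fold), with 5.30, 4.14 and 3.54 within slides 1, 2 and 3. Unfractionated cells read -0.85 and -1.19.

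Car2, whose product supplies bicarbonate to band 3, was well above background on all 14 arrays. It read 4.29, 3.08 and 3.76 in Kit-Gr1- cells, 0.15, 0.07 and -0.13 in Gr1+ cells, 2.59, 2.06 and 1.23 in Sca1hi cells, and 2.70, 2.14 and 2.09 in Sca1lo cells. Here the Sca1hi and Sca1lo arrays overlapped, and the Gr1+ arrays lay below both. Kit-Gr1- cells were 3.68 ± 0.42 above Gr1+ cells (12.8-fold) and 1.58 ± 0.36 above both Kit+Gr1- fractions together (2.98-fold). Within slides 1, 2 and 3 the difference from Gr1+ cells was 4.14, 3.01 and 3.89.

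Icam4, an integrin ligand, had the narrowest range of these 5 genes. Its level was 0.66, 0.83 and 0.78 in Kit-Gr1- cells, -0.28, -1.08 and -1.02 in Gr1+ cells, -0.53, -0.03 and -1.14 in Sca1hi cells, and 0.13, 0.35 and 0.02 in Sca1lo cells. The Kit-Gr1- arrays were again the highest, the Sca1lo arrays lay between them and the rest, and Sca1hi and Gr1+ overlapped. The margin between Sca1lo and Sca1hi arrays was narrow, at 0.02 on the compressed Sca1lo replicate 3 against -0.03 on Sca1hi replicate 2. Kit-Gr1- cells were 1.55 ± 0.43 above Gr1+ cells (2.93-fold) and 0.96 ± 0.37 above both Kit+Gr1- fractions (1.94-fold).

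Slc4a1, the anion exchanger that is the most abundant protein of the mature membrane, showed no such order. It read -2.05, -2.18 and -2.54 in Kit-Gr1- cells, -1.75, -2.31 and -1.97 in Gr1+ cells, -1.98, -3.06 and -1.30 in Sca1hi cells, and -1.97, -2.29 and -1.69 in Sca1lo cells. All 4 sorted fractions overlapped. The difference of Kit-Gr1- from both Kit+Gr1- fractions was -0.21 ± 0.45, with a 95% interval of -1.18 to 0.76. Its sign depended on the scaling, with 0.11 under scaling to array medians and 0.09 under quantile normalization. The median of all genes in that comparison was -0.25 in the main scaling and 0.07 under median scaling.

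The Rh genes and Ermap were dim, and their levels on the compressed arrays stood apart. Rhag read -2.07, -2.72 and -2.45 in Kit-Gr1- cells, -3.19, -3.64 and -2.64 in Gr1+ cells, -4.19, -4.09 and -1.70 in Sca1hi cells, and -3.67, -3.91 and -3.16 in Sca1lo cells. The highest array of each of the last 3 fractions was its replicate 3, the compressed one, and Rhag was also high on the compressed unfractionated array (-0.42, against -3.37 on the other).

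Rhd, which carries the D antigen in humans, was well above background on 2 of 3 Kit-Gr1- arrays, 3 of 3 Gr1+ arrays, 1 of 3 Sca1hi arrays and 0 of 3 Sca1lo arrays. Among these arrays were the compressed replicate 3 of Sca1hi and of Gr1+, where 98.9% and 95.9% of all spots were well above background. Rhd read -4.31, -4.09 and -5.60 in Kit-Gr1- cells, -5.64, -5.92 and -4.53 in Gr1+ cells, -8.20, -7.78 and -3.81 in Sca1hi cells, and -7.26, -6.89 and -6.38 in Sca1lo cells. Since Rhd was not well above background in Sca1lo cells, folds against them are lower bounds, computed against the lowest signal well above background on each array or the probe's own signal, whichever was higher. Rhd was at least 1.89-fold higher in Kit-Gr1- cells and at least 1.17-fold higher in Gr1+ cells than in Sca1lo cells, from means of -4.67 and -5.36 against -6.84. The Kit-Gr1- mean includes replicate 3, which was itself not well above background. The Gr1+ mean includes the compressed replicate 3. Without it the Gr1+ mean was -5.78, below the -5.59 that stood for Sca1lo cells. That -5.59 in turn includes the compressed Sca1lo replicate 3. With the compressed arrays left out on both sides, a bound was computed only against both Kit+Gr1- fractions together, and is given below.

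Ermap read -3.37, -3.47 and -4.13 in Kit-Gr1- cells, -5.40, -6.17 and -1.42 in Gr1+ cells, -5.59, -6.59 and -0.36 in Sca1hi cells, and -5.39, -5.34 and -2.80 in Sca1lo cells. It was well above background on 2 of 3 Gr1+ and 2 of 3 Sca1hi arrays and on all arrays of the other groups. The mean over the 3 compressed sorted arrays was -1.53, against -5.05 over the other 9 sorted arrays. For Rhd these means were -4.90 and -6.19, and for Rhag -2.50 and -3.32. Slc4a1 was also higher on them, at -1.65 against -2.24, while Aqp1, Kel, Art4, Car2 and Icam4 were lower. The fractions are not spread evenly over these sets, since no Kit-Gr1- array was compressed.

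**Figure D2:**
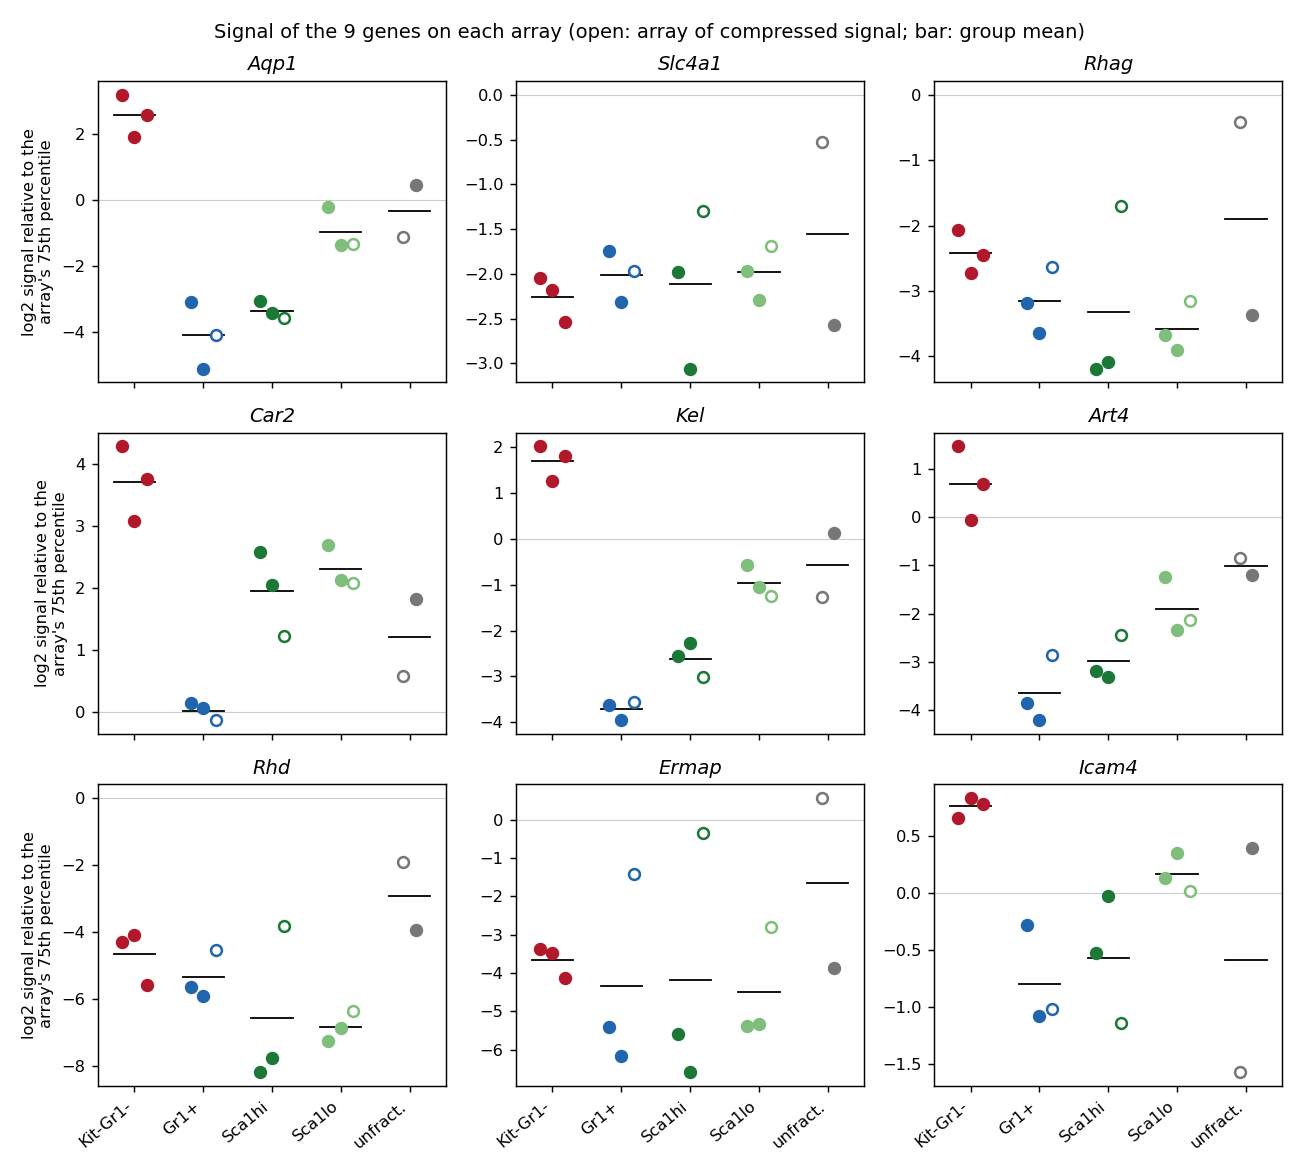
Level of each of the 9 genes on each array (log2 signal relative to the array's 75th percentile, separate axes for each gene), with open circles for the 4 compressed arrays and a bar for the group mean. Kit-Gr1- arrays stand above all other sorted arrays for Aqp1, Art4, Car2, Icam4 and Kel, and the open circles are the highest of their fraction for Ermap, Rhag and Rhd.

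In all, the 3 Kit-Gr1- arrays lay above the 9 other sorted arrays for 5 of the 9 genes, against 1.78% of all genes. Without the 3 compressed sorted arrays they lay above the other 6 for 8 of the 9, all but Slc4a1, against 2.45% of all genes. For Rhd the margin was narrow, at -5.60 on Kit-Gr1- replicate 3 against -5.64 on Gr1+ replicate 1. Rhd was not well above background on that Kit-Gr1- array. Against both Kit+Gr1- fractions the call rule of an adjusted p under 0.05 and at least 2-fold took in 3 of the 9 (Aqp1, Kel and Art4) and 0.0554% of all genes in the upward direction. Against Gr1+ cells it took in 4 (Aqp1, Kel, Art4 and Car2) and 0.563% of all genes. Since the genes were chosen with that fraction in view, these counts describe the choice and nothing is read from them. In bulk RNA, fewer cells of a type and less RNA per cell cannot be told apart.

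Sca1hi and Sca1lo cells were compared because both are Kit+Gr1- and were not set against each other in the contrast named for the choice of the 9 genes. The genes and this comparison were chosen with earlier results of these data known, so the counts below are not shown to be independent of the choice. Aqp1 differed by -2.38 ± 0.55 on the log2 scale, 5.22-fold lower in Sca1hi cells (95% interval -3.58 to -1.19). Kel differed by -1.66 ± 0.37 (3.15-fold, interval -2.46 to -0.85), Art4 by -1.07 ± 0.47 (2.10-fold, interval -2.09 to -0.05) and Icam4 by -0.74 ± 0.43 (1.67-fold, interval -1.67 to 0.20). In these 4 genes the 3 Sca1hi arrays lay below the 3 Sca1lo arrays, by a narrow margin for Art4 and Icam4, against 1.68% of all genes. A log2 difference of at least 1 in that direction was measured for 3 of the 9 genes, against 0.259% of all genes.

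None of these differences passed the test across all genes. In limma with Benjamini-Hochberg adjustment 0 of 32476 genes (0.00%) were called, and the adjusted p was 1 for each of the 9. Without adjustment the level of 0.05 was passed by 55 genes (0.169%), and 3 of the 9 were among them, Kel, Aqp1 and Art4. With slide as a block the differences were -2.71 ± 0.28 for Aqp1 (adjusted p = 0.182 in limma) and -1.91 ± 0.24 for Kel (adjusted p = 0.419). Both fractions shared slides 1 and 4, where the differences were -2.87 and -2.24 for Aqp1, -1.98 and -1.77 for Kel, -1.94 and -0.31 for Art4, and -0.66 and -1.17 for Icam4. Over the 26 alternatives tried, the adjusted p ran from 0.0837 to 1 for Aqp1 and from 0.104 to 1 for Kel.

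The other 5 genes did not separate the Sca1 fractions. Car2 differed by -0.35 ± 0.42 (95% interval -1.26 to 0.55) and Slc4a1 by -0.13 ± 0.52 (interval -1.26 to 0.99). Rhag measured 0.25 ± 0.76 (interval -1.38 to 1.88) and Ermap 0.33 ± 1.65 (interval -3.23 to 3.89). Without the 4 compressed arrays they were -0.35 and -0.73, and without Sca1hi replicate 3 alone -0.56 and -1.58. Ermap also turned negative without Sca1lo replicate 1 (-0.11) or replicate 2 (-0.09). For Rhd, well above background on 1 of 3 Sca1hi and 0 of 3 Sca1lo arrays, neither size nor direction is read from the fitted values.

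Gr1+ cells were compared with both Kit+Gr1- fractions together, in arrays that exclude the Kit-Gr1- fraction. The Kit+Gr1- arrays are those of the contrast by which the genes were chosen, so the comparison is not wholly independent of the choice. Of the 9 genes 2 fell in Gr1+ cells, Car2 and Kel, against 0.625% of all genes in that direction (2.00% in either). Car2 averaged 0.03 ± 0.15 in Gr1+ cells (SD, n = 3) and 2.14 over Kit+Gr1- cells, a log2 difference of -2.11 ± 0.36 (4.31-fold, adjusted p = 0.00838 in limma). Kel averaged -3.71 ± 0.22 in Gr1+ cells (SD, n = 3) and -1.79 over Kit+Gr1- cells, a difference of -1.92 ± 0.32 (3.78-fold, adjusted p = 0.00768 in limma). In both, the 3 Gr1+ arrays lay below all 6 Kit+Gr1- arrays, as did those of 3.86% of all genes.

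The Kel call depended on which cells stood for Kit+Gr1-. Its difference was -1.09 ± 0.37 against Sca1hi cells alone (adjusted p = 0.362 in limma) and -2.75 ± 0.37 against Sca1lo cells alone (adjusted p = 0.00497). Slide 1 held both fractions and gave -2.06, slide 2 held Sca1lo cells and gave -2.90, and slide 3 held Sca1hi cells and gave -1.27. The call of Kel ended under median scaling (adjusted p = 0.295), quantile normalization (0.373), normexp background correction (0.0806) and the deposited series matrix (0.164), and without Gr1+ replicate 2 (0.0869), with the sign kept in each. For Car2 the difference was -1.93 ± 0.42 against Sca1hi cells (adjusted p = 0.0493) and -2.28 ± 0.42 against Sca1lo cells (adjusted p = 0.019), with -2.49, -2.07 and -2.19 within slides 1, 2 and 3. Its call ended under median scaling (0.375), without Gr1+ replicate 2 (0.0782) and without Gr1+ replicate 3 (0.0501).

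Aqp1 and Art4 had negative differences in Gr1+ cells that did not pass. Aqp1 measured -1.95 ± 0.48 (3.86-fold, adjusted p = 0.0583 in limma), and passed in 9 of 28 alternatives. Among them were replicate number as a block, which takes these arrays as paired (-1.95 ± 0.45, adjusted p = 0.0467), and slide as a block (0.00652). It passed with the sorted arrays alone (0.0117) and without the compressed arrays (0.0403). It also passed without Gr1+ replicate 1 (0.0361), unfractionated replicate 1 (0.011) or unfractionated replicate 2 (0.0136). Aqp1 did not pass under median scaling (0.447), quantile normalization (0.5), normexp background correction (0.219) or with the series matrix (0.228). Against Sca1hi cells alone Aqp1 differed by -0.75 ± 0.55, and against Sca1lo cells alone by -3.14 ± 0.55 (adjusted p = 0.0171). Art4 measured -1.19 ± 0.41 (adjusted p = 0.257) and passed without the 4 compressed arrays (-1.51 ± 0.43, adjusted p = 0.0487).

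The remaining 5 genes did not pass in Gr1+ cells. Icam4 measured -0.59 ± 0.37 (95% interval -1.40 to 0.21), Slc4a1 0.04 ± 0.45 (interval -0.93 to 1.01) and Rhag 0.30 ± 0.65 (interval -1.11 to 1.71). Rhd was well above background on 3 of 3 Gr1+ arrays and 1 of 6 Kit+Gr1- arrays, so no size is given over all arrays. The fit without the compressed arrays passed the call rule for Rhd (adjusted p = 0.0371 in limma). It set 2 Gr1+ arrays against 4 Kit+Gr1- arrays, and Rhd was well above background on none of those 4. The fitted size behind that call comes from those readings, so nothing is read from the call. There Rhd was at least 1.09-fold higher in Gr1+ cells, from a mean of -5.78 against the -5.90 that stood for Kit+Gr1- cells (mean -7.53). Ermap measured 0.01 ± 1.43 and -0.06 ± 0.41 without the compressed arrays.

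**Figure D3:**
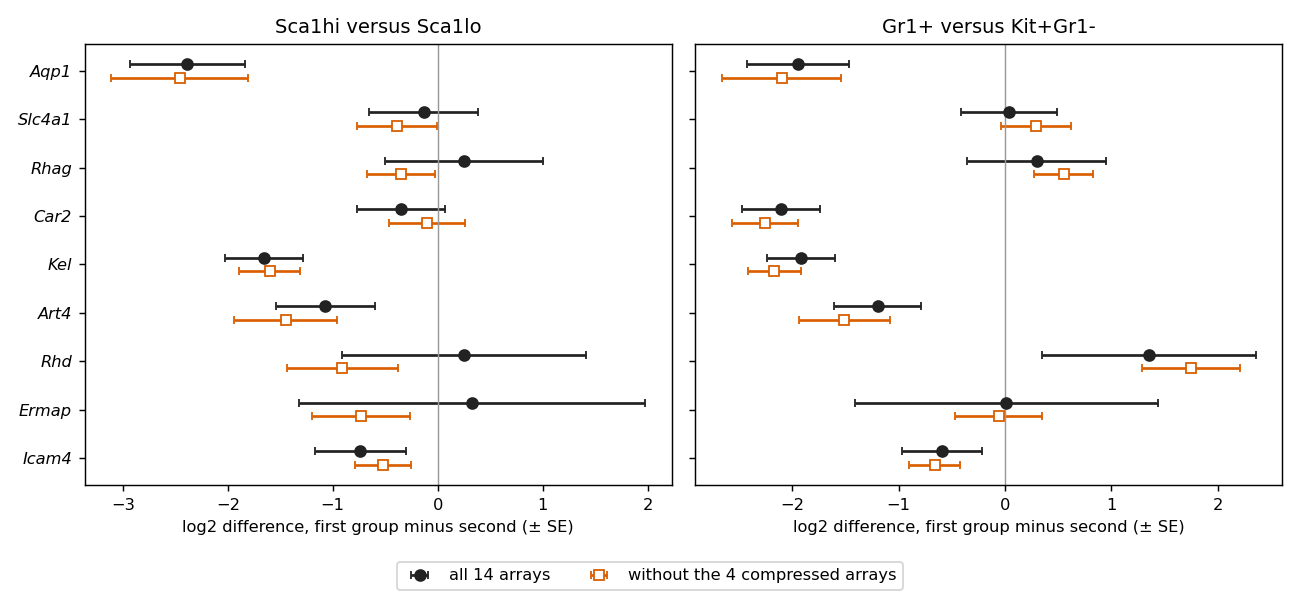
Log2 differences of the 9 genes (first group minus second, bars are standard errors) between Sca1hi and Sca1lo cells (left) and between Gr1+ and Kit+Gr1- cells (right), over all 14 arrays (black) and without the 4 compressed arrays (orange). Aqp1, Art4, Icam4 and Kel lie below 0 in both panels, while Ermap and Rhag have wide bars and change sign in the left panel when the compressed arrays are left out. Rhd is drawn as fitted, but was mostly not above background in Sca1hi and Sca1lo cells, so its points give no size.

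Other genes for blood group antigens were measured for 26 of the 30 listed. In Gr1+ against Kit+Gr1- cells, where 1.38% of all genes were called higher and 0.625% lower, 2 fell, 0 rose and 24 did not pass, with a median of -0.09, against -0.04 over all genes. Slc14a1, the Kidd urea transporter, differed by -3.44 ± 0.47 (10.9-fold lower, adjusted p = 0.00233 in limma), and its 2 probes gave -3.44 and -2.40. Its mean was -2.66 ± 1.18 in Gr1+ cells, 1.15 ± 0.29 in Sca1hi cells and 0.40 ± 0.26 in Sca1lo cells (SD, n = 3 each), and it passed in all 27 alternatives that gave a value. Cd59a, the complement inhibitor that carries the CD59 antigen in humans, fell by 1.03 (2.04-fold, adjusted p = 0.0497) and passed in 10 of 27.

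In Kit-Gr1- against Gr1+ cells 3 of the 26 rose and 0 fell, beside 0.563% of all genes higher and 1.03% lower. Slc14a1 was higher by 4.19 ± 0.54 (18.2-fold, adjusted p = 0.00173 in limma), Gypc, the Gerbich glycophorin, by 1.96 ± 0.29 (3.90-fold, adjusted p = 0.00367) and Cd59a by 1.47 ± 0.28 (2.77-fold, adjusted p = 0.0185). The Cd59a call ended in 6 of 25 alternatives, under median scaling (adjusted p = 0.342), with the series matrix (0.995), and without Kit-Gr1- replicate 1 (0.118) or 3 (0.12) or Gr1+ replicate 2 (0.147) or 3 (0.0505). The Gypc call ended under median scaling alone (0.317). None of the 26 passed in Kit-Gr1- against Kit+Gr1- cells (0.0677% of all genes in either direction) or in Sca1hi against Sca1lo cells. Slc14a1 measured 0.75 ± 0.54 in Sca1hi against Sca1lo cells, where Aqp1 and Kel were negative, and a difference between these genes was not tested.

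Of 18 other transporters of the red cell membrane 16 were measured. In Gr1+ against Kit+Gr1- cells 1 rose, 1 fell and 14 did not pass, beside 1.38% of all genes higher and 0.625% lower. Slc40a1, the iron exporter ferroportin, rose by 3.60 ± 0.42 (12.1-fold, adjusted p = 0.00129 in limma), with means of 1.84 ± 0.57 in Gr1+ cells, -1.61 ± 0.09 in Sca1hi cells and -1.90 ± 0.39 in Sca1lo cells (SD, n = 3 each). It was called in all 28 alternatives. Slc12a7, a potassium and chloride cotransporter, fell by 1.56 (2.94-fold, adjusted p = 0.00374) and was called in 25 of 28, not under median scaling (adjusted p = 0.262), with the series matrix (0.277) or without Gr1+ replicate 2 (0.0516). In Kit-Gr1- against Gr1+ cells Slc38a5, a glutamine transporter, rose by 2.22 ± 0.39 (4.67-fold, adjusted p = 0.0101) and Slc40a1 fell by 3.59 (12.1-fold, adjusted p = 0.00229), while 14 did not pass, beside 0.563% of all genes higher and 1.03% lower. The Slc38a5 call ended under quantile normalization (adjusted p = 0.0511), with the series matrix (0.863), without Kit-Gr1- replicate 1 (0.085) and without Gr1+ replicate 2 (0.0823), 4 of 26 alternatives. The Slc40a1 call ended under median scaling alone (0.102).

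Relatives of the 9 genes in the same families were set beside 1.38% of all genes called higher and 0.625% lower in Gr1+ against Kit+Gr1- cells. Among 11 other aquaporins 1 rose in that comparison, Aqp8, by 2.16 ± 0.34 (4.47-fold, adjusted p = 0.00556 in limma), where Aqp1 measured -1.95. Among 14 other carbonic anhydrases 1 fell, Car13, a cytosolic form, by 1.91 (3.76-fold, adjusted p = 0.0023), in the direction of Car2. The Aqp8 call ended under median scaling (0.0601) and with the series matrix (0.311), and the Car13 call under median scaling (0.2). Car13 averaged 2.55 in Kit-Gr1- cells, 0.61 in Gr1+ cells, 2.55 in Sca1hi cells and 2.49 in Sca1lo cells. It measured 0.03 in Kit-Gr1- against Kit+Gr1- cells. The Slc4, Rh glycoprotein, ICAM, ADP-ribosyltransferase, M13 peptidase and butyrophilin relatives, 2 to 7 measured in each family, had no call in any of the 4 comparisons.

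**Figure D4:**
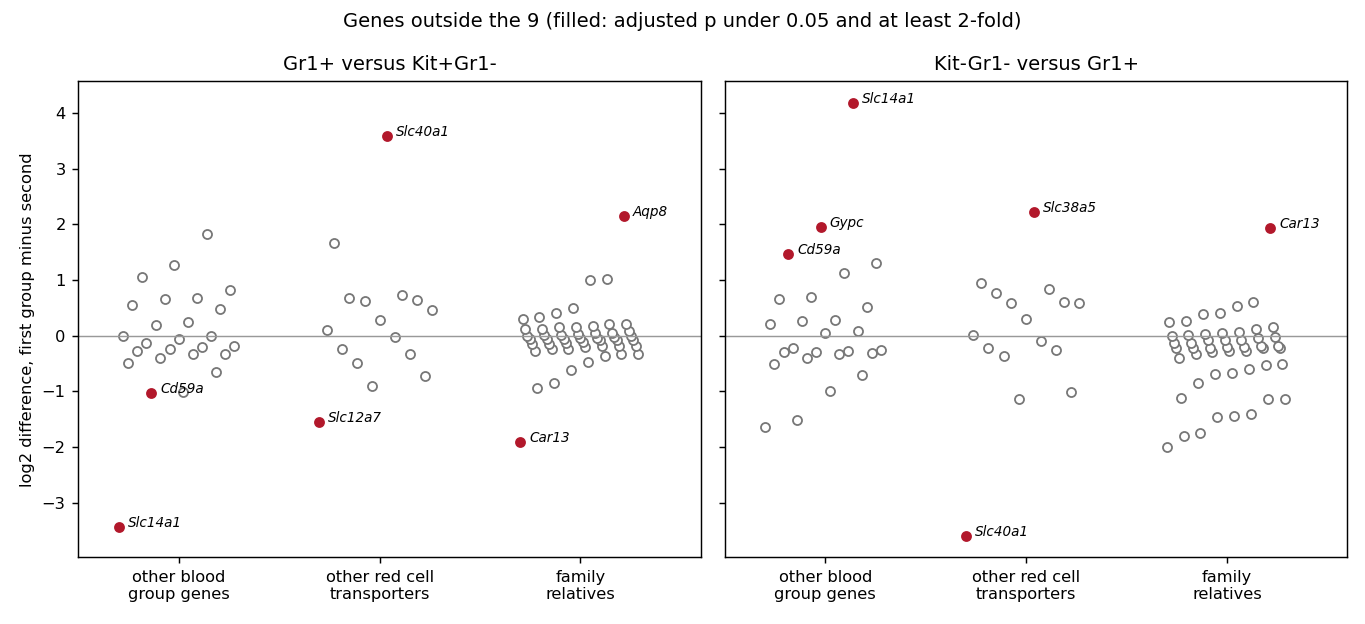
Log2 differences (first group minus second) of the other blood group genes, other red cell transporters and family relatives in Gr1+ against Kit+Gr1- cells (left) and Kit-Gr1- against Gr1+ cells (right), with filled circles for genes called at an adjusted p under 0.05 and at least 2-fold. Slc14a1 is the lowest point on the left and the highest on the right, and Slc40a1 the reverse.

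The genes with the most similar levels over the 12 sorted arrays were taken by Pearson's r with the mean of the 9 centred levels, as a description with no test. In order they were Tmod1, which caps actin filaments of the membrane skeleton (r = 0.979), the transporter Slc38a5 (0.963), Cetn4 (0.945), Clca3a1 (0.941), the chemokine Ccl17 (0.939), Mtss1 (0.938), the erythropoietin receptor gene Epor (0.938) and the erythroid factor Klf1 (0.936). The 12 arrays share slides and fractions, and 3 of them, those of Kit-Gr1- cells, stand apart. Tmod1 had means of -0.58 in Kit-Gr1- cells, -6.86 in Gr1+ cells, -5.44 in Sca1hi cells and -3.99 in Sca1lo cells, the same order of fraction means as Aqp1 and Kel. Tmod1 was picked by its likeness to the 9 on these arrays, so nothing is read from the shared order.

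Markers of several cell types also differed between the fractions. The mean level of 9 measured erythroid markers of 10 was 2.28 to 2.63 over Kit-Gr1- arrays and 0.39 to 0.69 over Gr1+ arrays. It was 0.52 to 0.90 over Sca1hi arrays and 1.01 to 1.17 over Sca1lo arrays, so the Sca1lo means were the higher here too. Single erythroid markers differed by -0.91 to 0.05 in Sca1hi against Sca1lo cells, and none was called. In Kit-Gr1- against Kit+Gr1- cells they ran from -0.02 (Alas2) to 3.90. For 8 megakaryocyte markers the ranges were 1.78 to 2.58, 0.56 to 0.94, 0.28 to 1.14 and 0.82 to 1.24 in the same 4 fractions. The single megakaryocyte markers went both ways, from -1.49 to 3.66 in Kit-Gr1- against Gr1+ cells and from -1.71 to 2.82 in Gr1+ against Kit+Gr1- cells. The 8 mast cell and basophil markers read 2.20 to 3.44 in Kit-Gr1- cells and 2.90 to 4.09 in Gr1+ cells. They read 1.01 to 2.07 in Sca1hi and 1.16 to 2.21 in Sca1lo cells. Singly, these markers differed by -3.44 to 1.47 in Kit-Gr1- against Gr1+ cells. In Gr1+ cells the 8 neutrophil markers read 3.57 to 5.44 and the 4 eosinophil markers 3.69 to 5.16, against -4.69 to -1.12 and -3.66 to -1.37 in Kit-Gr1- cells. No erythroid, megakaryocyte, mast cell, neutrophil or eosinophil marker was below background on every array of any group. The part of these cell types in the levels of the 9 genes was not tested.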

How the data were processed

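RNA of 14 samples in 5 groups was hybridised to Agilent single-colour (Cy3) arrays. Per the file headers, Agilent Feature Extraction 10.1.1.1 read the scans, and the authors deposited, per spot, a processed intensity (local background subtracted, spatial trend removed) beside median spot and local background intensities. The deposited series matrix holds log2 values, which equal the log2 of that signal to within 5e-09, with no scaling or centring between arrays. No replicates were pooled.

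Control spots and spots flagged as outliers were left out. Spots of a probe were averaged, scaled by the array's 75th percentile on the log2 scale, and kept if well above background on at least 3 of 14 arrays (40295 of 41174 probes). Symbols came from RefSeq (GRCm38.p6) through the probes' transcript accessions, for 23374 probes. The headers' array build differs, so array coordinates were not used. The kept probe with the highest mean stood for a gene, which left 32476 genes (16461 named by symbol). limma 3.58.1 in R 4.3.3 fitted the 5 groups to all arrays at once with no covariates (lmFit, then eBayes with trend), on 9 residual degrees of freedom. Tests were two-sided with Benjamini-Hochberg adjustment over all 32476 genes, and a gene was called, and said to rise or fall, at an adjusted p under 0.05 and at least 2-fold. Intervals are 95% intervals of that fit. The fit was tested on simulated data. Deviations from group means of same-numbered Sca1hi, Sca1lo and Gr1+ arrays correlated at r from 0.621 to 0.867 over 9 pairs. For the replicate block the labels' numbers were taken to pair these fractions, whose replicate 3 arrays are all compressed. Differently numbered arrays of these fractions ran from -0.857 to 0.662, and the replicate 1 arrays share slide 1. Pairing therefore cannot be told apart from compression or slide by these correlations. With Kit-Gr1- arrays r was -0.231 to 0.206, and these were not taken as paired.

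The 9 genes, the lists and the comparisons were chosen with earlier results of these data known. The 9 genes, list genes called in a comparison (up to 6 per list) and the 8 genes most like the 9 are named. One result on a listed gene is not reported here. Tables used numpy 2.4.6 and pandas 2.3.3 under Python 3.11.15, and figures matplotlib 3.10.9. Alternatives were other scalings, normexp background correction (offset 50, on median signals), the series matrix, no filter, every probe, slide or replicate number as a block, and fits on fewer arrays. Chosen after seeing the data were the fits with outlier spots kept, with slide as a block and no compressed arrays together, and against 1 Kit+Gr1- fraction alone.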

Additional observations from a re-analysis of the deposited data

How the results depend on the processing

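Of the 972 values of the 9 genes under alternatives, 909 kept their direction and their side of the threshold or moved by less than 1 SD, 8 moved by more, 13 passed where they had not, 9 no longer passed, and 33 changed sign without passing under the new sign. Of 320 values of called list genes, 282 passed again and 38 did not, and none changed sign. For Sca1hi against Sca1lo, Slc4a1 turned to 0.06 with the series matrix and 0.11 with slide as a block. Without the compressed arrays Rhag and Ermap turned to -0.35 and -0.73, and with slide as a block as well to -0.50 and -0.41. Fitted values for Rhd were -0.91 and -0.50 in the same fits, and -0.44 under quantile normalization. These values, and the Rhd range given next, show neither size nor direction. Rhd was well above background on 1 of 3 Sca1hi arrays, a compressed one, and on 0 of 3 Sca1lo arrays. Leaving out 1 array at a time gave -0.54 to 0.34 for Slc4a1, -0.56 to 0.68 for Rhag, -0.66 to 0.01 for Car2, -1.14 to 1.05 for Rhd and -1.58 to 1.53 for Ermap. For Gr1+ against Kit+Gr1-, Slc4a1 turned to -0.16 with the series matrix and -0.03 against Sca1lo alone. Ermap turned to -0.07 with quantile normalization, -0.08 with normexp, -0.18 with the series matrix, -0.06 without the compressed arrays, -0.22 with slide as a block as well, and -0.15 against Sca1hi alone. Leaving out 1 array gave -0.20 to 0.24 for Slc4a1 and -1.44 to 0.97 for Ermap.

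Counts of called genes depended on the arrays in the fit. Gr1+ against Kit+Gr1- gave 651 genes, 202 under median scaling (173 higher and 29 lower, against 448 and 203), 2027 without the compressed arrays, 2255 with slide as a block as well, 1345 with sorted arrays alone, 325 against Sca1hi alone and 421 against Sca1lo alone, and 114 to 1349 without 1 array, lowest without Gr1+ replicate 2 and highest without unfractionated replicate 1. Kit-Gr1- against Gr1+ gave 517 genes, 191 under median scaling, 1829 without the compressed arrays, 2076 with slide as a block as well, 1276 with sorted arrays alone and 151 to 1283 without 1 array, with the same arrays at the ends. Kit-Gr1- against Kit+Gr1- gave 22 genes (18 higher and 4 lower), 13 under quantile normalization (12 and 1) and with the series matrix, 108 without the compressed arrays, 325 with slide as a block as well, 106 with sorted arrays alone and 0 in limma against Sca1lo alone. Without 1 array it gave 0 to 111, with 0 without Kit-Gr1- replicate 1 or 3, where 440 and 401 genes had an unadjusted p under 0.05. Sca1hi against Sca1lo gave 0 genes in limma under each of the 26 alternatives. The cause of these shifts was not tested.

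With the replicate block the counts were 792, 670, 27 and 0 in the order of the comparisons above, and Aqp1 in Gr1+ cells passed (adjusted p = 0.0467 in limma). Among the 9 genes and the named list genes the block changed no other call. Of the 12 sorted arrays 10 correlated best with an array of their own number. Those that did not were Kit-Gr1- replicates 1 and 3. They correlated best with Sca1hi replicate 3 (r = 0.215) and Sca1hi replicate 2 (r = 0.427). Kit-Gr1- arrays were not taken as paired, so in the comparisons with them the block is no pairing. Signal over background limits Rhd, whose values against Sca1lo cells give no size, and Ermap, which were not well above background on all arrays. The number of arrays limits all values.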
